A study of Mus musculus with 6 samples.

Results

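The immunity-related GTPases are a family of interferon-inducible proteins that defend cells against intracellular bacteria and parasites. Members were chosen by gene symbol: the 7 rows of the count table named Irgm1, Irgm2, Igtp, Iigp1, Ifi47, Tgtp1 and Tgtp2, of 19309 genes in all. Each symbol stood on 1 Ensembl identifier. They were followed in M2c-polarized macrophages of 3 sEH-/- and 3 wild-type mice, with 1 RNA sequencing library per mouse. The sEH-/- animals lack the soluble epoxide hydrolase gene, Ephx2, in every tissue from the germline on, so that the comparison is not restricted to macrophages. Both groups were strain-matched littermates aged 8 to 10 weeks, with C57BL/6N the inbred strain named in the methods. The methods state that most experiments used cells from females. The paper's results add that the experiments following its comparison of the sexes were done with female bone marrow. The labels used here give no sex. Monocytes from bone marrow were grown for 7 days with the growth factors M-CSF and GM-CSF, both at 15 ng/mL. Lipopolysaccharide (10 ng/mL) and interferon-γ (1 ng/mL) followed, and then TGF-β1 (10 ng/mL), and both genotypes received all of these. The labels give 24 h for the inflammatory step and 48 h for TGF-β1, whereas the methods give 12 h for the inflammatory step. No library without interferon-γ was analysed here, so that the values compare genotypes within stimulated cells and hold no measure of induction.

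Immunity-related GTPases fall into a regulatory and an effector class, named after a lysine or methionine in the nucleotide-binding loop. The regulators (GMS class) Irgm1, Irgm2 and Igtp (Irgm3) sit on the membranes of the cell and hold the effectors inactive there. The effectors (GKS class), among them Iigp1 (Irga6), Ifi47 (Irgd), Tgtp1 and Tgtp2 (both Irgb6), gather on the vacuole around a parasite such as Toxoplasma gondii and break its membrane. In macrophages the genes are switched on by interferon-γ and, to a varying degree, by type I interferons.

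The promoters are shown first because all 7 genes were measured in cells that had received interferon-γ. In the RefSeq promoter table of GRCm38.p6 (the mm10 assembly), 6 of the 7 members were matched by symbol, all but Iigp1. The 120 bases before the annotated start of each are given 5′ to 3′ on the strand of the gene. Capitals mark matches to TTCNNNGAA, the interferon-γ-activated sequence (GAS), and to the core of the interferon-stimulated response element (ISRE), written as a GAAA box, any 2 bases and a second GAAA box, both searched on both strands.
Irgm1, chr11:48871421-48871540, minus strand: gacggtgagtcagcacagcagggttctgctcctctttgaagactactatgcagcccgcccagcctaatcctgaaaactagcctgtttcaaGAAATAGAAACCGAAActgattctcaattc
Irgm2, chr11:58214857-58214976, plus strand: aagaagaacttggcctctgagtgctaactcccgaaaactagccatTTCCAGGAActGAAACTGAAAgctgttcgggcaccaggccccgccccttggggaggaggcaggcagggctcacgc
Igtp, chr11:58199436-58199555, plus strand: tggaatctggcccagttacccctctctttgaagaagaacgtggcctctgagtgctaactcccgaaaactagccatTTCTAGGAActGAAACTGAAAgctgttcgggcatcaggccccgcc
Tgtp1, chr11:48992247-48992366, minus strand: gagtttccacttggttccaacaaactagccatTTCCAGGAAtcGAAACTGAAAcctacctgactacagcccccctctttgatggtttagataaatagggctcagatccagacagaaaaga
Tgtp2, chr11:49064213-49064332, minus strand: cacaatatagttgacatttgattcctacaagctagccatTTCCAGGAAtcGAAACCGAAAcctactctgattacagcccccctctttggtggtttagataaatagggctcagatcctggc
Ifi47, chr11:49076467-49076586, plus strand: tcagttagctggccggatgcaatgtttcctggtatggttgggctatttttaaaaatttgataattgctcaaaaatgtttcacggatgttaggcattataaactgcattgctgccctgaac

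Irgm2, Igtp, Tgtp1 and Tgtp2 each carried the same arrangement, a GAS match, 2 further bases and an ISRE core match. Among all 32851 promoter windows of 300 bases, 8.3% held the GAS letters, 3.44% held the ISRE core and 0.454% held both. In Igtp the GAS match lay from position -45 to -37 and in Irgm2 from -75 to -67, relative to the RefSeq start. In Tgtp2 it lay from -81 to -73 and in Tgtp1 from -88 to -80. Irgm1 had no GAS match and 2 ISRE core matches that overlapped each other, from -30 to -21 and from -24 to -15. The window of Ifi47 held neither set of letters. Igtp and Irgm2, which neighbor each other, shared an identical run of 61 bases within their 300-base windows, and the longest run shared by Tgtp1 and Tgtp2 was 27 bases. These matches describe letters in a window and no binding was measured.

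In mm10, 6 of the 7 genes lie on chromosome 11 and Iigp1 (ENSMUSG00000054072) lies on chromosome 18, from 60376027 to 60392634 on the plus strand. Irgm1 (ENSMUSG00000046879; 48861968 to 48871683), Tgtp1 (ENSMUSG00000078922; 48985327 to 48994172) and Tgtp2 (ENSMUSG00000078921; 49057194 to 49064206) are on the minus strand of chromosome 11. Ifi47 (ENSMUSG00000078920) follows on the plus strand from 49076587 to 49096974. Igtp (ENSMUSG00000078853; 58199556 to 58207591) and Irgm2 (ENSMUSG00000069874; 58199618 to 58222782) overlap on the plus strand further along. They have 162 exonic bases in common, which is 8.01% of the exonic bases of Igtp, and reads over several genes were not counted. The gene model of Irgm2 begins inside Igtp, upstream of the RefSeq start used for the promoter above. Ifi47 shares 111 exonic bases with the odorant receptor gene Olfr56, and Tgtp1 shares 223 with the GTPase gene Gm12185. Tgtp1 and Tgtp2 are nearly identical copies: 18.8% of the 50-base stretches of annotated Tgtp1 transcripts and 13.4% of those of Tgtp2 occurred in no other gene's annotated transcripts. Reads with several alignments were removed, so that the counts of this pair rest on short stretches and their levels are uncertain.

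The libraries held between 4400197 and 6096440 counted reads. Ephx2 had 4, 2 and 1 counts in sEH-/- against 26, 49 and 57 in wild-type libraries, which fits the labels. Of 8 macrophage markers, 0 were called between genotypes and all 8 had a log2 fold change above 0, with a median of 0.16. In CPM, counts scaled to the effective size of the library, their sum was 2055 to 2553 in sEH-/- against 1849 to 2333 in wild-type libraries. Raw counts of some markers hardly followed the library totals, as Lyz2 had 1153 to 1173 counts in every library and Cd68 1082 to 1159. The CPM of such a gene falls as the library total rises, and the part of this in the markers' shift was not tested. Neutrophil markers, of which 6 of 9 had a row, summed to 28.2 to 31.8 CPM in sEH-/- against 17.3 to 21.1 CPM in wild-type libraries. Most of this was S100a8 (78 to 147 counts per library), while S100a9 had 0 to 3 counts, and its part in the results was not tested. The lymphocyte markers Klrb1c and Cd79b had at most 4 and 2 counts, and Cd4 had 93 to 189. In whole-culture RNA, a change in the number of cells of a type and in the RNA per cell cannot be told apart.

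All 7 members were expressed in every library. Levels between genes are compared in CPM per kilobase of exon that no other gene shares. In wild-type macrophages Igtp was highest at 70.0 ± 7.09 CPM per kilobase (SD, n = 3), followed by Ifi47 at 59.3 ± 5.76, Irgm2 at 53.3 ± 5.57 and Irgm1 at 43.6 ± 4.13. Each of these genes overlapped the next in its range over libraries, although the order was the same within each of the 3 wild-type libraries. Iigp1 lay below all of them at 31.9 ± 5.03, with no overlap with Irgm1. Tgtp2 at 13.9 ± 2.12 and Tgtp1 at 3.53 ± 0.11 were lowest, on a scale that divides by their whole exons although few of their bases can be counted. Mean counts over the 6 libraries were also divided by the number of 50-base stretches found in no other gene's annotated transcripts. On that scale Tgtp2 was highest at 0.557, above Igtp at 0.392, and Tgtp1 was lowest at 0.089. The low rank of Tgtp2 therefore depends on the scale. In sEH-/- macrophages Irgm2 came second at 70.1 ± 5.76, between Igtp at 77.2 ± 4.37 and Ifi47 at 66.8 ± 5.36, and its range overlapped both. Ifi47 was above Irgm2 in the third sEH-/- library.

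No member was called between genotypes, and Irgm2 showed the clearest difference, at 1.32 times its wild-type level. A gene was called when its adjusted p was below 0.05 and its change exceeded 1.5-fold, which 360 of 13785 tested genes met (2.61%), and 0 of the 7 members did so with edgeR's quasi-likelihood test. DESeq2 called 3.43% of all genes and 0 of the members, and limma called 307 of the 13785 genes and 0 of the members. Irgm2 alone had an unadjusted p below 0.05 (1 of 7, against 23.4% of all tested genes) and Irgm2 alone had libraries that did not overlap between genotypes (1 of 7, against 26.3%). The fitted log2 fold change was above 0 for 6 of 7 members, against 49.8% of all genes. The median of the members was 0.14 on the log2 scale, beside 0.16 for the 8 macrophage markers and -0.00085 for all tested genes. The part of the macrophage markers' shift in that of the members was not tested. The regulators had a median of 0.15 and the effectors of 0.10.

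**Figure D1:**
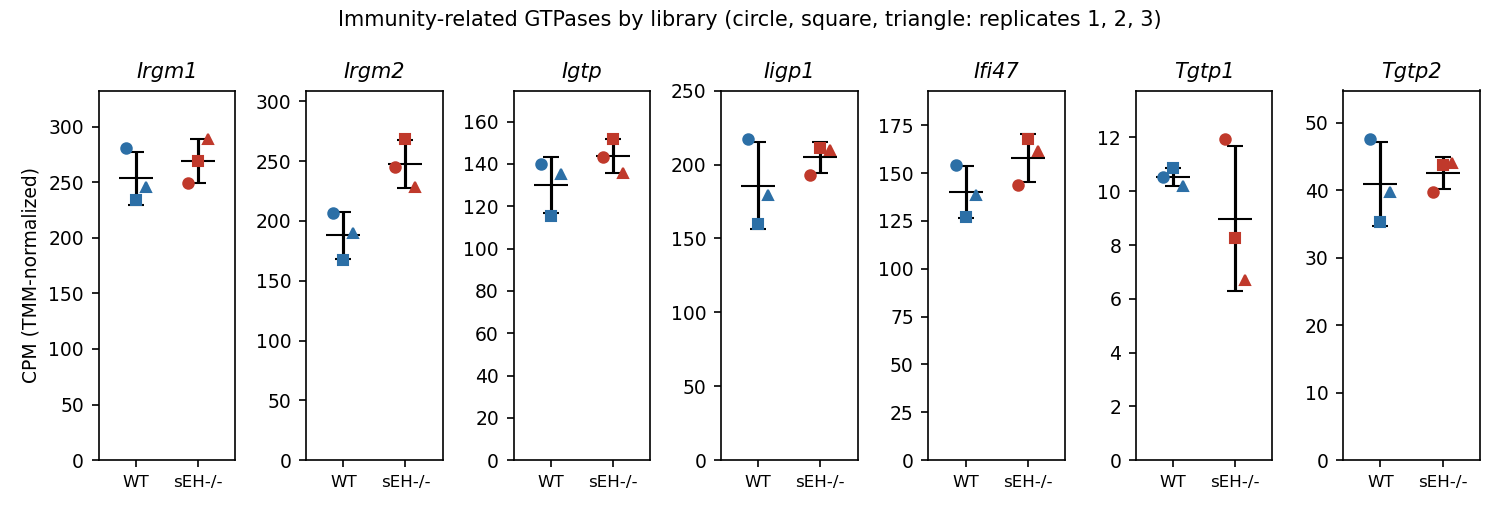
CPM of each of the 7 immunity-related GTPases in the 3 sEH-/- and 3 wild-type libraries (points, shaped by replicate; horizontal lines are means and error bars SD; each panel has its own axis from 0). Irgm2 is the member whose groups do not overlap, with 228 to 269 CPM against 167 to 207 CPM.

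Irgm2, a regulator found at the Golgi apparatus, was the member with the largest difference. Its counts were 1437, 1334 and 986 in sEH-/- against 942, 1034 and 1059 in wild-type libraries. Scaled to library size these were 245, 269 and 228 CPM against 207, 167 and 189 CPM. Every sEH-/- library was above every wild-type library after scaling, while the raw count of the third sEH-/- library, the smallest of the 6, lay within the wild-type range. The level was 247 ± 20.3 CPM in sEH-/- against 188 ± 19.7 CPM in wild-type macrophages (SD, n = 3 each). The log2 fold change was 0.40 (SE 0.094, 95% interval 0.19 to 0.61), with an adjusted p of 0.046 by edgeR's quasi-likelihood test. It passed the test on p and not the 1.5-fold threshold, and by p alone 553 genes (4.01%) passed. Leaving out 1 library moved the adjusted p to between 0.024 without the first wild-type library and 0.213 without the second, and the log2 fold change to between 0.32 and 0.47.

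Irgm1, which acts at lysosomes, mitochondria and the Golgi and whose loss disturbs autophagy, had 249, 269 and 289 CPM in sEH-/- against 280, 234 and 246 CPM in wild-type libraries. The groups overlapped, and the first wild-type library was above 2 of the 3 sEH-/- libraries. The log2 fold change was 0.086 (SE 0.090, 95% interval -0.11 to 0.29; edgeR adjusted p = 0.62). Igtp, the regulator on the endoplasmic reticulum and lipid droplets, had 143, 152 and 136 CPM against 140, 115 and 135 CPM. Its log2 fold change was 0.15 (SE 0.086, 95% interval -0.045 to 0.34; edgeR adjusted p = 0.34), with overlap of the groups.

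Among the effectors, Iigp1, which polymerizes on vacuoles, had 193, 211 and 210 CPM in sEH-/- against 217, 160 and 180 CPM in wild-type libraries. The first wild-type library held the highest of the 6 values and the second wild-type library the lowest. Its log2 fold change was 0.14 (SE 0.11, 95% interval -0.089 to 0.38; edgeR adjusted p = 0.45). Ifi47 had 144, 168 and 162 CPM against 154, 127 and 138 CPM, and its fitted log2 difference was 0.17 (SE 0.089, 95% interval -0.024 to 0.37; edgeR adjusted p = 0.28). The intervals of Irgm1, Igtp, Iigp1 and Ifi47 reached at most 0.38, so that a rise of 1.5-fold, which is 0.58 on this scale, lay outside them.

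Tgtp1 had 70, 41 and 29 counts in sEH-/- against 48, 67 and 57 counts in wild-type libraries, and it was the only member with a fitted change below 0. Its level was 8.98 ± 2.69 CPM against 10.5 ± 0.33 CPM, and the fitted log2 difference was -0.21 (SE 0.23, 95% interval -0.73 to 0.31; edgeR adjusted p = 0.64). A fall of 1.5-fold lay inside that interval and a rise of 1.5-fold outside it. Its copy Tgtp2 had 39.8, 43.7 and 44.0 CPM against 47.6, 35.3 and 39.7 CPM. The fitted log2 fold change of Tgtp2 was 0.061 (SE 0.12, 95% interval -0.21 to 0.33; edgeR adjusted p = 0.81), and the sum of both copies gave 0.0081. Reads assigned to Tgtp1 were 23.1%, 15.9% and 13.2% of the pair in sEH-/- against 18.1%, 23.5% and 20.4% in wild-type libraries. The exact 95% binomial intervals of these shares, which cover counting error only, ran from 9.05% to 18.5% for the lowest and from 18.7% to 28.9% for the highest.

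**Figure D2:**
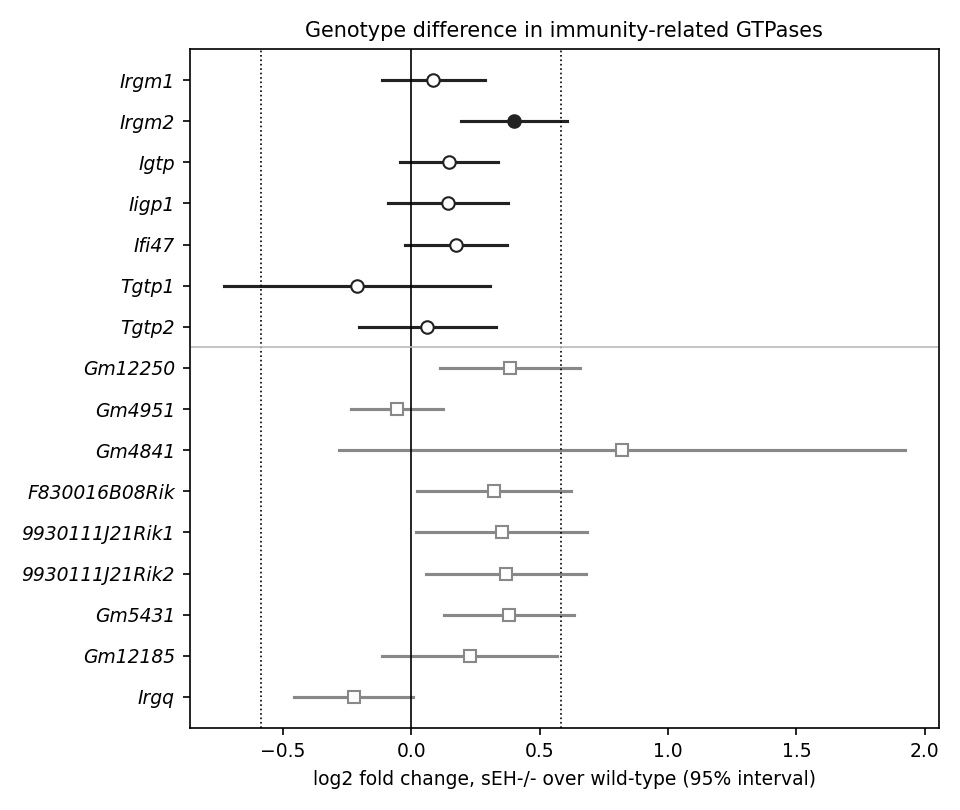
Log2 fold change, sEH-/- over wild-type, of the 7 members and the other family genes tested (points, filled where the adjusted p is below 0.05; lines are 95% intervals of edgeR's fit; dotted lines mark 1.5-fold). Among the 7 members, the interval of Irgm2 (0.19 to 0.61) is the only one that leaves out 0.

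Among the wild-type libraries, 6 of the 7 members, all but Tgtp1, were highest in the first library and lowest in the second. The sEH-/- libraries had no such common order, as Irgm1 was lowest in the first of them and Irgm2 and Igtp in the third. The mean of the 7 log2 levels, relative to the wild-type mean, was 0.11, 0.15 and 0.063 in sEH-/- macrophages against 0.15, -0.13 and -0.012 in wild-type ones. The spread among the wild-type libraries thus exceeded the difference between the genotypes. In the wild-type group the order of these means was the reverse of the order of the library totals, whereas in the sEH-/- group the smallest library had the lowest mean. The second wild-type library held 1.32 times the counts of the first, while Irgm1 held 1.13 times, Irgm2 1.10 times, Igtp 1.11 times, Ifi47 1.12 times, Tgtp2 1.005 times and Iigp1 0.996 times as many. Tgtp1, with the fewest counts, held 1.40 times as many. The authors removed duplicate reads, which limits how many reads a densely covered base can give. Over all genes with at least 50 counts, the median of this count ratio was 1.46 below 0.01 counts per exonic base and 1.17 from 0.3 counts per base upward. Igtp (0.353), Ifi47 (0.312) and Irgm2 (0.307) lay in that densest class of 575 genes, in which the median log2 fold change between genotypes was 0.077 and 76.2% were above 0. Irgm1 (0.234) lay in the class below, with a median count ratio of 1.25. Iigp1 (0.174) and Tgtp2 (0.0736) lay in classes with medians of 1.32 and 1.39, and their own ratios were the lowest of the members. The density of Tgtp2 divides by whole exons, although few of its bases can be counted. Per 50-base stretch found in no other gene's annotated transcripts, Tgtp2 had 0.557 counts, the highest of the members, and Iigp1 had 0.174. The part of duplicate removal in the members' values was not tested.

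**Figure D3:**
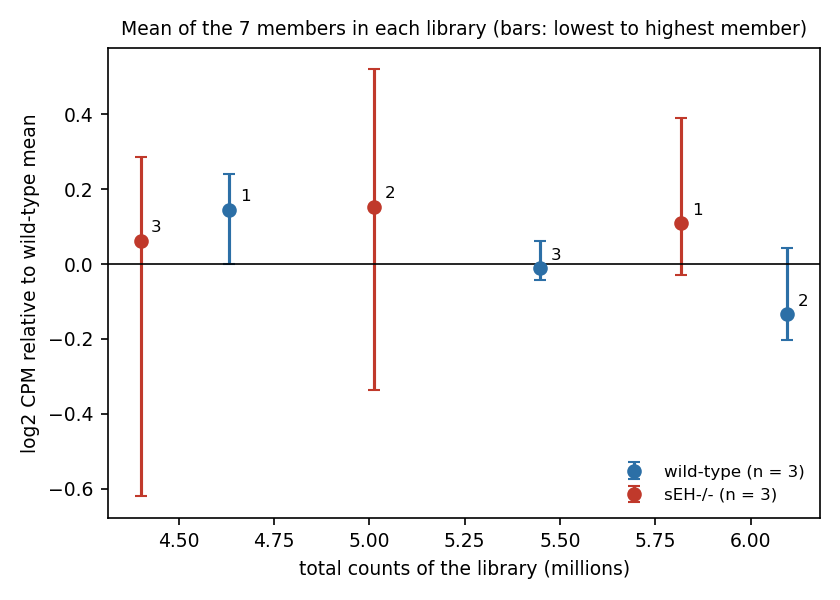
Mean of the 7 members' log2 CPM relative to their wild-type means (points; bars run from the lowest to the highest member and are no error), against the total count of the library, for the 3 sEH-/- and 3 wild-type libraries, numbered by replicate. In the wild-type libraries the mean over the members goes from 0.15 in the smallest to -0.13 in the largest, and the smallest sEH-/- library has the lowest mean of its group, 0.063.

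The 5 genes whose profile over the 6 libraries was nearest to the mean of the members, of 10262 compared, were Map2k1, Snx11, Rnpep, Pnpt1 and Dynll1. Their mean absolute difference from it was 0.018 to 0.021 on the log2 scale and their log2 fold changes were 0.088 to 0.14.

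The ratio of Irgm2 to other family genes within a library needs no scaling to library size. Such a ratio can still change with depth, as the counts of the members did not follow the library totals alike. From the first to the second wild-type library, Irgm2 rose 1.10 times and Tgtp1 1.40 times. These ratios were computed after the values of Irgm2 had been seen. Over Irgm1 the count ratio was 0.986, 0.999 and 0.789 in sEH-/- against 0.737, 0.715 and 0.770 in wild-type libraries. Over Igtp, its neighbor with a similar count density, it was 1.71, 1.77 and 1.68 against 1.48, 1.45 and 1.40, a difference of 0.25 on the log2 scale. Over each of the 6 other members the sEH-/- libraries lay above the wild-type libraries with no overlap. Gm12250 is the locus of the effector Irgb10, which the gene models list as a processed pseudogene. Over Gm12250 the count ratio was 2.68, 2.67 and 2.72 against 2.42, 2.79 and 2.79, and the groups overlapped. The tested family genes outside the 7 members had log2 fold changes of -0.23 to 0.82. Gm12250 and Gm5431 both had 0.38, beside 0.40 for Irgm2. Apart from Gm12250, ratios over these genes were not computed, nor was the share of all genes that separate in this way. An exact two-sided permutation test gave p = 0.10 for each of the 6 members, and 0.12 after Benjamini-Hochberg adjustment over the 7 ratios. The value 0.10 is the smallest that 3 against 3 libraries allow, so that this test cannot decide. All 7 ratios share the counts of Irgm2 and are not separate observations.

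**Figure D4:**
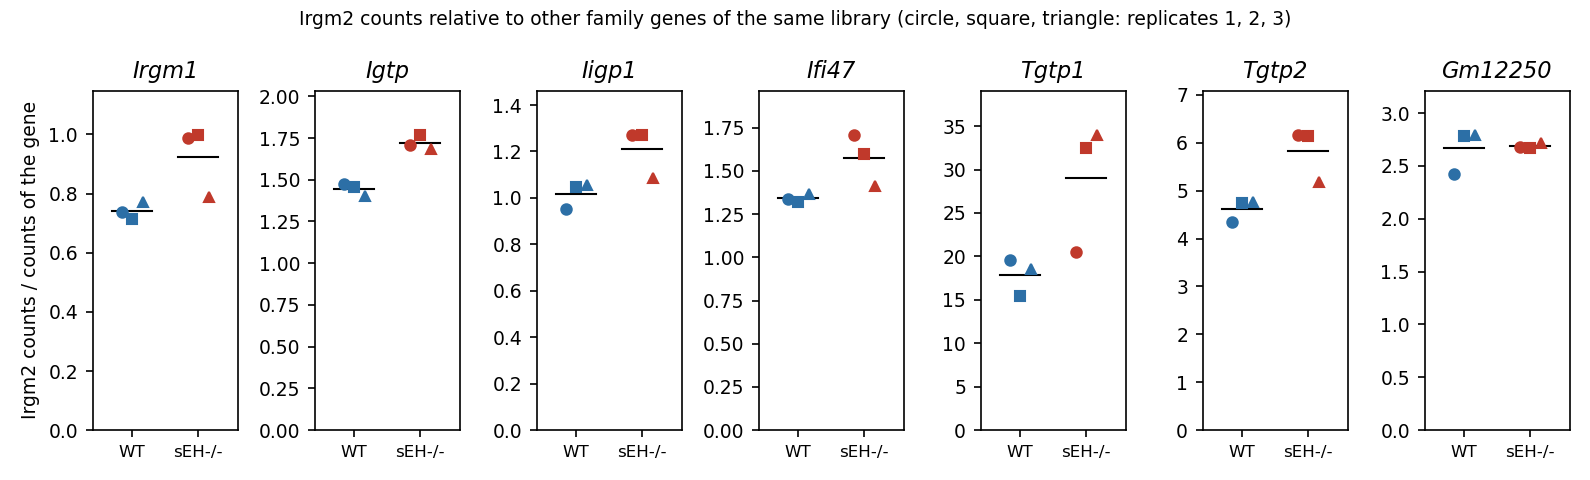
Count of Irgm2 divided by the count of each of the 6 other members and of Gm12250 in the same library (points are libraries, lines are means; each panel has its own axis from 0). The groups are separate over every other member, as over Igtp with 1.68 to 1.77 against 1.40 to 1.48, and overlap over Gm12250.

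Of 10 further family genes in the table, 9 were tested and 0 were called, and 7 had a log2 fold change above 0, with a median of 0.35. Of the 9, 5 had an unadjusted edgeR p below 0.05, against 23.4% of all genes. For 2 of them the libraries did not overlap between genotypes, against 26.3% of all genes. DESeq2 also called 0 of the 9, with an adjusted p of 0.049 for Gm5431 and 0.078 for Gm12250. Gm12250 had a log2 fold change of 0.38 (SE 0.12; edgeR adjusted p = 0.095), with 91.5, 100.7 and 84.0 CPM in sEH-/- against 85.4, 60.1 and 67.8 CPM in wild-type libraries. The tandem GTPase genes near Irgm1 and the Tgtp copies had 0.38 (Gm5431, SE 0.11, adjusted p = 0.079), 0.37 (9930111J21Rik2, SE 0.14, adjusted p = 0.15), 0.35 (9930111J21Rik1, SE 0.15, adjusted p = 0.19) and 0.23 (Gm12185, SE 0.15, adjusted p = 0.41), all by edgeR. These 4 genes share stretches with each other, as 9930111J21Rik1 does with 9930111J21Rik2 over 80.4% of its 50-base stretches, so that their counts are uncertain too. With 1 library left out, the edgeR adjusted p of Gm12250 ran from 0.023 without the first wild-type library to 0.35 without the second, and that of Gm5431 from 0.022 to 0.31 for the same libraries. Near Iigp1, F830016B08Rik had 0.32 (edgeR adjusted p = 0.18), Gm4951 had -0.057 (adjusted p = 0.72) and Gm4841, with a mean of 6.67 counts, had 0.82 (adjusted p = 0.36). Irgq, a distant relative with a divergent GTPase domain, had -0.23 (SE 0.10; edgeR adjusted p = 0.22). Irgc1 had 2 to 7 counts and was not tested.

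Genes near the members were also read, as the family lies in clusters. Among 15 tested genes outside the family and within 100 kb of a member, the median log2 fold change was -0.037, 0 were higher and 1 was lower. That gene, Trim7, which encodes a ubiquitin ligase and lies beside Irgm1, had 7.64 ± 2.90 CPM in sEH-/- against 21.8 ± 7.95 CPM in wild-type macrophages (log2 fold change -1.51, SE 0.32, edgeR adjusted p = 0.034).

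The upstream pathway was read from fixed lists. Of the interferons, Ifnb1 and Ifna4 had 0 counts in all 6 libraries, which allows at most 0.694 CPM in the library with the highest limit, and Ifng was not analysed here. Of 16 interferon signaling genes tested, 0 were called, with a median log2 fold change of 0.16. Of the 16, 13 were above 0, against 49.8% of all genes, and 7 had an unadjusted edgeR p below 0.05, against 23.4%. For 5 of them the libraries did not overlap between genotypes, against 26.3% of all genes. Stat2, chosen after its values were seen, had the largest change of the list at 0.41 (SE 0.10; edgeR adjusted p = 0.051), with no overlap between the groups. The interferon-γ receptor chains Ifngr1 and Ifngr2 had 0.22 (edgeR adjusted p = 0.18) and 0.064 (adjusted p = 0.70), and the kinases Jak1 and Jak2 had -0.13 (adjusted p = 0.38) and 0.24 (adjusted p = 0.081). The interferon regulatory factors Irf1, Irf8 and Irf9 had 0.090, -0.0063 and 0.16 (edgeR adjusted p = 0.62, 0.98 and 0.27).

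Lists of partner genes and of other interferon targets were read in the same way. Of 11 guanylate-binding proteins, which act with immunity-related GTPases on vacuoles, 0 were called with a median of 0.046, while 9 of the 11 were above 0 and 4 had an unadjusted p below 0.05. The most abundant, Gbp2, had 0.011 (SE 0.087; edgeR adjusted p = 0.96). Gbp11, chosen after its values were seen, had the largest difference of the list at 0.97 (SE 0.25; edgeR adjusted p = 0.056), with no overlap between the groups. DESeq2 called 1 gene of that list. A further 13 genes encode ubiquitin-like ATG8 proteins, their conjugation proteins, and ubiquitin ligases and adaptors that act with immunity-related GTPases at vacuoles. Of these, 0 were called with a median of -0.050, and Sqstm1, the ubiquitin-binding adaptor p62, had 0.087 (edgeR adjusted p = 0.59). Of 16 other interferon-γ-induced genes tested, 0 were higher and 1 was lower, with a median of -0.087. The lower one was H2-Eb1, which encodes an MHC class II chain, at 47.0, 51.2 and 8.10 CPM in sEH-/- against 108, 108 and 107 CPM in wild-type libraries (log2 fold change -1.57, SE 0.37, edgeR adjusted p = 0.047).

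Of 16 genes typical of the type I interferon response, 3 were higher and 0 lower, none of the 16 fitted changes was below 0, and their median was 0.35. Oas2, which makes the activator of RNase L, had 0.99 (SE 0.20; edgeR adjusted p = 0.030). The antiviral nucleotide kinase gene Cmpk2 had 0.97 (SE 0.21; edgeR adjusted p = 0.035) and the exonuclease gene Isg20 had 0.66 (SE 0.15; edgeR adjusted p = 0.041). Over all tested genes 208 (1.51%) were higher and 152 (1.1%) were lower. The 7 members lay below this list in their median and at the level of the signaling genes, and the differences between lists were not tested.

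**Figure D5:**
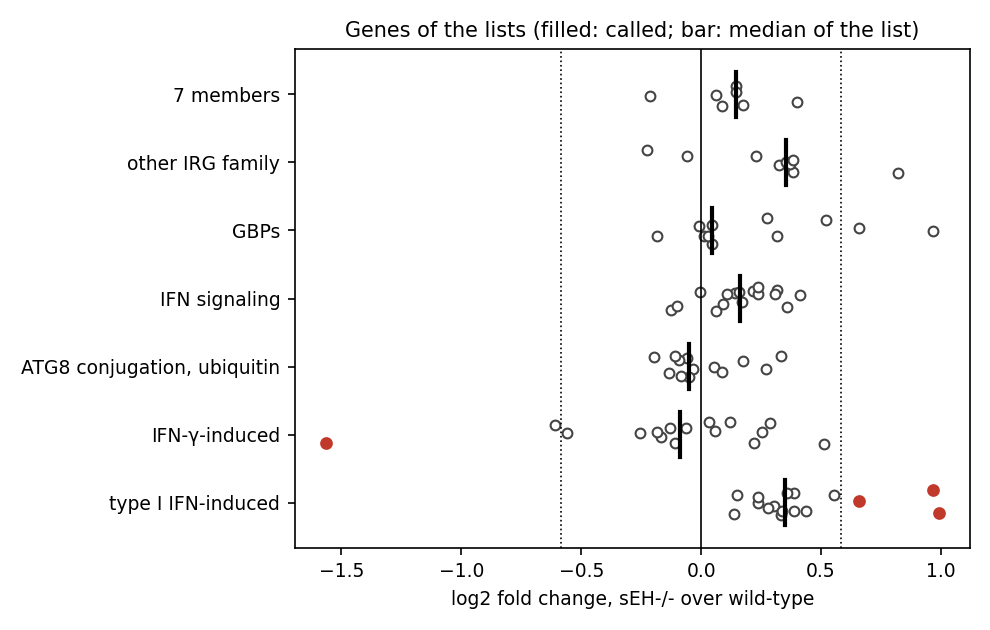
Log2 fold change, sEH-/- over wild-type, of every tested gene in each list (points, filled where called; the vertical mark is the list's median and dotted lines mark 1.5-fold). The medians are 0.14 for the 7 members, 0.35 for the other family genes and for the type I interferon list, and -0.087 for the other interferon-γ-induced genes.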

How the data were processed

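The authors deposited raw counts per gene, whole numbers made from reads of macrophage cultures. Per the methods and the submitters' processing notes, whose tool versions are given here, reads were trimmed (Trimmomatic 0.39), aligned to mm10 (STAR 2.7.7a), freed of multi-mapping and duplicate reads (Picard 2.21.7) and counted per gene with reads over several genes left out (featureCounts 1.6.5). Other value columns numbered 0. Duplicate removal lowers the counts of densely covered genes, and multi-mapping removal lowers those of near-identical copies.

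Genes with a mean above 5 counts (13785, with 99.8% of the counts) were fitted by edgeR 4.0.16 in R 4.3.3 with TMM factors and the quasi-likelihood test, 3 sEH-/- against 3 wild-type libraries. P-values were adjusted by Benjamini and Hochberg over all tested genes. A call needed an adjusted p below 0.05 and a change above 1.5-fold. SEs and 95% intervals came from the quasi-likelihood fit, and a prior count of 2 was used for log2 CPM. DESeq2 1.42.0, limma 3.58.1, other scalings, filters, thinning, a correction for saturation, a covariate, a replicate block and leaving out each library were alternatives. The scripts were tested on simulated data. Library totals were 4400197 to 6096440 counts.

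The members and lists were chosen with earlier results of these data known. Stat2 and Gbp11 were named after their values were seen. Named are all members, all tested family genes, 7 signaling genes (an eighth under the rule is not reported here), up to 3 called genes of each other list (otherwise its most abundant gene), Ephx2, the 5 genes of nearest profile and called genes within 100 kb. Other marker lists served as checks: dendritic cell markers (5 of 7 with a row) summed to 27.0 to 57.6 CPM in sEH-/- and 42.1 to 58.8 CPM in wild-type libraries, stromal markers (6 of 6) to 11.3 to 29.9 and 9.44 to 62.2 CPM, T and NK cell markers (2 of 9) to 16.4 to 35.9 and 20.6 to 30.6 CPM, erythroid markers (1 of 7) to at most 1.97 CPM and B cell markers (1 of 4) to at most 0.463 CPM. Sequences are from RefSeq and gene models from GENCODE M21, in which 19286 of 19309 identifiers were found.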

Additional observations from a re-analysis of the deposited data

How the results depend on the processing

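No member was called under any alternative tried, except that dropping the fold threshold called 1, Irgm2. The median of the 7 members ran from 0.045 to 0.20 on the log2 scale. The change of Irgm2 ran from 0.32 to 0.48 over 18 alternatives, and its adjusted p was below 0.05 in 11 of them. That p was 0.0037 with DESeq2, 0.051 with limma-voom, 0.065 with the library total as a covariate and 0.037 with a correction for saturation at 1 count per exonic base. Tgtp2 turned negative with counts thinned to the smallest library (-0.015) and without the second wild-type library (-0.038, within a range up to 0.18 when 1 library was left out), where p-values were far from the threshold. Irgm1, Igtp, Iigp1, Ifi47 and Tgtp1 kept their direction throughout but moved in size: with 1 library left out, Irgm1 ran from 0.030 to 0.16, Igtp from 0.062 to 0.20, Iigp1 from 0.045 to 0.27, Ifi47 from 0.11 to 0.25 and Tgtp1 from -0.49 to -0.041.

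Over all genes, 360 calls became 553 with no fold threshold, 171 with the library total as a covariate (121 higher, 50 lower), and 6 to 625 with 1 library left out. The counts were 6 without the third wild-type library, 25 without the second, 96 without the second sEH-/- library, 570 without the third and 625 without the first wild-type library. DESeq2 gave 473.

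The labels do not state that replicate numbers pair mice. Deviations from the group mean correlated at -0.082, -0.26 and -0.037 for same-numbered libraries, and at -0.076 to 0.16 for differently numbered ones. With 3 libraries centered in each group, these values cannot decide whether the libraries were paired. With the replicate number as a block, 234 genes were called (149 higher, 85 lower), 0 of them members, and the adjusted p of Irgm2 was 0.094.

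Tgtp1 had 29 to 70 counts, a larger spread between sEH-/- than wild-type libraries and few unique stretches, whose parts in its wide interval were not tested. The cause of the dependence on single libraries was not tested.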
